A study of Mus musculus with 12 samples.

Results

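Gene expression in the terminal ileum was compared between 3 Tcra-/- mice housed separately (TCRaSepxT2, TCRaSepxT3 and TCRaSepxT4) and 3 wild type C57BL/6 mice (WTB6x3159, WTB6x3160 and WTB6x3167), over all 23284 genes of the count table. These are 6 of the 12 libraries sequenced. The other 6 came from 3 Tcra-/- mice that shared a cage with wild type males for 4 to 8 weeks (co-housed) and from 3 RAG1 -/- mice, and they are used here to estimate the spread and to show where the separately housed mice differed. Library names carry what look like mouse numbers, the labels do not speak of pooling, and each library is treated here as 1 mouse. All mice were supplied by Taconic through a NIAID contract and kept in specific pathogen free conditions at NIAID, and no treatment is named. The labels give the genotypes as C57BL/6, TCRa -/- and RAG1 -/- and say no more about the alleles or their backcrossing. They give neither the age of the mice nor the sex of these 6, nor how the wild type mice were housed, nor the number of cages. Genotype, housing, cage and breeding colony therefore cannot be told apart in this comparison, and p-values measure only the spread between mice.

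Tcra encodes the alpha chain of the T cell receptor. Mice without it make no alpha beta T cells, which include the helper, regulatory and most cytotoxic T cells, while gamma delta T cells, which use other receptor chains, B cells and innate lymphoid cells still develop. Alpha beta T cells help B cells form germinal centres and switch to IgA, the antibody that plasma cells of the gut secrete and the epithelium carries into the lumen. They are also a main source of interferon gamma, which induces MHC class II and the immunoproteasome. In the ileum, IL-22 and IL-17A from lymphocytes induce antimicrobial proteins of the epithelium, and the bacteria that colonise a mouse influence how much of these cytokines is made.

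Counts of the 6 libraries ranged from 40294353 to 44574864 reads in genes. On the log2 scale, Pearson's r across genes was 0.991 to 0.992 between the separately housed mice, 0.990 to 0.992 between the wild type mice and 0.967 to 0.978 between mice of the 2 groups, where genes are not independent replicates. Tcra itself was not analysed here, so the genotype was checked only through the T cell genes below. Ileal and epithelial genes were present: Slc10a2, the ileal bile acid transporter, stood at 170 to 234 CPM in the 6 mice, and of 10 epithelial genes tested none was called by edgeR (2 higher at an unadjusted p under 0.05, and 2 higher with DESeq2). Reads of the Y-linked genes Ddx3y, Eif2s3y, Kdm5d and Uty were present in all 6 mice at 25.1 CPM or more, and Xist was at 0.853 CPM or less. The summed level of 12 smooth muscle genes was 3280 to 3620 CPM in wild type and 4659 to 5101 CPM in separately housed mice, without overlap. Summed levels of 7 genes each for proximal small intestine, ileum and colon were higher too, without overlap. Proximal genes summed to 758 to 1145 CPM in separately housed and 494 to 647 CPM in wild type mice. Ileal genes summed to 6583 to 7392 against 5203 to 6370 CPM, and colon genes to 125 to 143 against 52.8 to 75.9 CPM. By edgeR, 1 of 6 proximal and 1 of 7 ileal genes tested fell (7.7% of all genes), and 1 of 3 colon genes rose (6.06%). The parts of muscle content and segment sampled were not tested.

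CPM is the read count scaled to a common library size with TMM factors, and it is not corrected for gene length, so levels are compared between mice and never between genes. Values per mouse follow the order in which the mice are named above, with the separately housed mice first. A gene was called when the adjusted p of edgeR's quasi-likelihood test (two-sided, Benjamini-Hochberg over the 15866 genes tested) was under 0.01. Log2 fold changes are separately housed minus wild type, with their SE, and means have their SD over 3 mice.

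Of the 15866 genes tested, 2182 (13.8%) were called, 961 (6.06%) higher and 1221 (7.7%) lower in the separately housed mice. Large differences were mostly losses: 600 genes (3.78%) fell and 173 (1.09%) rose by over 2-fold. The mice of both groups did not overlap in any of the 2182 called genes, against 6455 of all genes tested (40.7%). The median log2 fold change over all genes was 0.00. Leaving out TCRaSepxT4 lowered the counts to 490 higher and 791 lower, and to 112 higher over 2-fold. The higher calls also numbered 617 without TCRaSepxT3, 608 without WTB6x3159 and 588 without WTB6x3167.

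**Figure D1:**
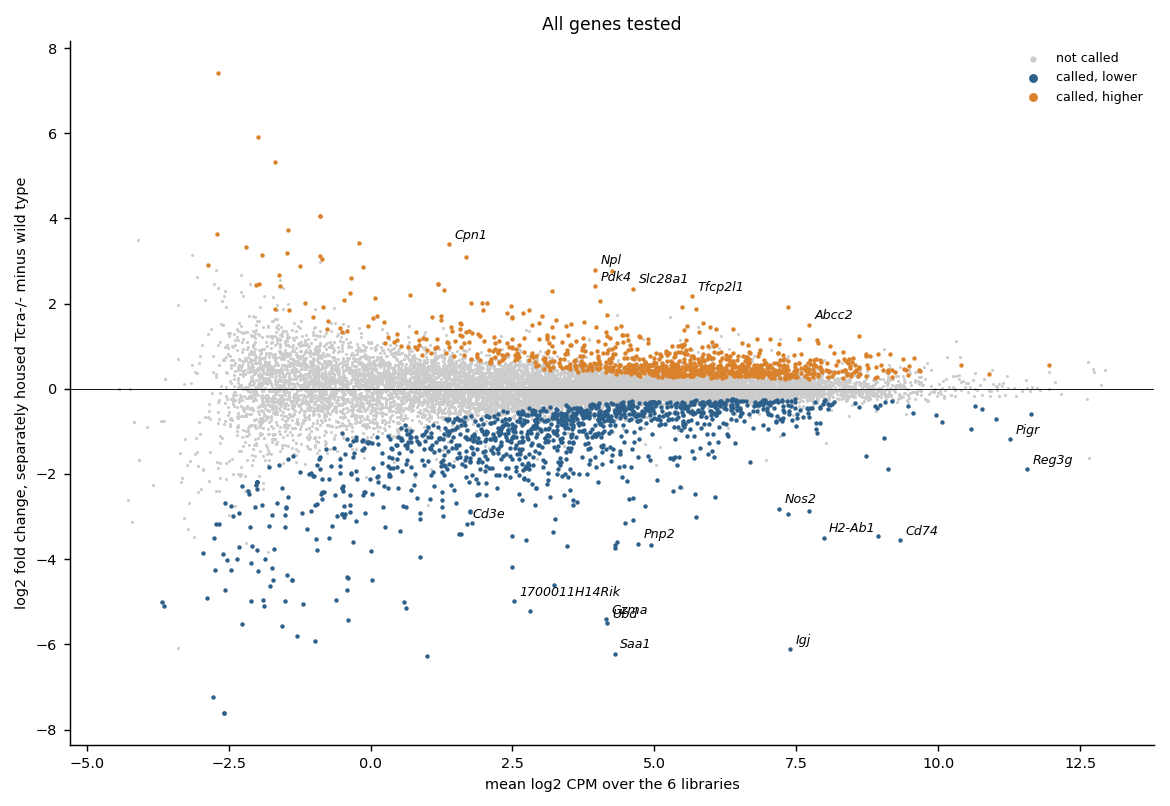
Log2 fold change of each gene tested (separately housed Tcra-/- minus wild type) against its mean log2 CPM over the 6 libraries, 1 point per gene, with the called genes in blue (1221 lower) and orange (961 higher). Saa1 (-6.22) and Igj (-6.11) lie furthest down among the labelled genes, and Cpn1 (3.40) lies highest.

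Genes of alpha beta T cells were lower in the separately housed mice. Of 32 alpha beta T cell genes tested, 28 fell and none rose, with a median log2 fold change of -3.00. Cd3e, a signalling chain shared by the alpha beta and the gamma delta receptor (chr9:44806826-44817673, mm9), stood at 0.79, 1.05 and 1.42 CPM in the separately housed mice and at 6.84, 12.7 and 9.95 CPM in wild type. It was 9.01-fold lower (log2 -3.17 ± 0.36, adjusted p = 3.5e-05), with every separately housed mouse below every wild type mouse. Some Cd3e signal remained, at 1.09 ± 0.318 CPM, whereas the Rag1-/- mice, which lack mature T and B cells, had a mean of 0.0158 CPM. In bulk tissue, fewer cells of a type and less RNA per cell cannot be told apart.

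Both coreceptors were lower. Cd8a stood at 2.83, 2.77 and 3.17 CPM against 21, 36.3 and 32.2 CPM, a fall of 10.2-fold (adjusted p = 4.9e-07). Cd4, which macrophages and innate lymphoid cells of the gut may also express, stood at 2.9, 2.66 and 2.67 CPM against 7.67, 8.48 and 9.57 CPM, a fall of 3.13-fold (adjusted p = 8.7e-05). The 2 surface receptors Cd5 and Cd6, which dampen T cell receptor signals, fell by 43.1-fold (0.0959 ± 0.044 against 4.29 ± 1.01 CPM, adjusted p = 2.0e-07) and 32.1-fold (0.247 ± 0.0484 against 7.98 ± 2.25 CPM, adjusted p = 1.6e-07). Zap70, the kinase that T cells share with natural killer cells, fell by 6.13-fold (adjusted p = 6.0e-07). The 4 members that were not called were Bcl11b (25.7 ± 1.63 against 27 ± 1.88 CPM), Skap1 (1.99 ± 0.193 against 3.27 ± 0.301), Gata3 (0.728 ± 0.547 against 1.01 ± 0.489) and Il7r (2.65 ± 0.804 against 6.91 ± 1.81), all 4 named after their values were seen. Il7r passed with the 6 libraries alone (adjusted p = 0.000853) and by DESeq2 (0.0066). In the lists of T and B lymphocytes, MHC presentation and oxidases described here with no rise, no member was higher at an unadjusted p under 0.05 by edgeR or called higher by DESeq2. The list summed to 56.7 to 63 CPM in separately housed mice, 177 to 238 CPM in wild type, 85.1 to 156 CPM in co-housed and 48.1 to 55.6 CPM in Rag1-/- mice.

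Of 13 regulatory T cell genes tested, 7 fell and none rose (median log2 -1.58). Foxp3, the transcription factor that defines these cells, had 0, 0.0233 and 0.153 CPM in the separately housed mice and 0.81, 0.589 and 0.358 CPM in wild type. These are 8 reads against 78 in all, a 9.43-fold difference with an adjusted p of 0.00348 that rose above 0.01 without TCRaSepxT2 (0.016), TCRaSepxT3 (0.0197), WTB6x3159 (0.0185) or WTB6x3160 (0.0107). Ctla4, an inhibitory receptor, fell by 33.1-fold (0.0593 ± 0.0665 against 2.06 ± 0.124 CPM, adjusted p = 3.9e-05), and Icos, a costimulatory receptor, by 10.1-fold (0.434 ± 0.104 against 4.38 ± 1.11 CPM, adjusted p = 7.7e-05). Ikzf2, which encodes Helios, fell by 2.99-fold (adjusted p = 8.4e-05).

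Among 25 genes of cytotoxic and intraepithelial lymphocytes, 19 fell and none rose (median log2 -2.50), and the list summed to 46.1 to 54.8 CPM against 257 to 415 CPM in wild type. Gzma, the granule protease granzyme A (chr13:113884035-113891189), stood at 3.38, 2.87 and 2.06 CPM against 80.3, 139 and 133 CPM, a fall of 42.5-fold (adjusted p = 0.000313). Granzyme B (Gzmb) fell by 37.3-fold (1.17 ± 0.467 against 43.6 ± 10.7 CPM, adjusted p = 0.000659). Perforin (Prf1), which forms the pore through which granzymes enter a target cell, fell by 13.8-fold (adjusted p = 1.5e-05). Levels in the separately housed mice lay below those of the Rag1-/- mice for the proteases: Gzma was at 2.77 ± 0.667 CPM against a Rag1-/- mean of 27 CPM, and Gzmb at 1.17 CPM against 10.7 CPM. That pair of groups was not tested.

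Receptors of tissue-resident lymphocytes were lower too. Itgae, the integrin that holds intraepithelial lymphocytes to E-cadherin, stood at 4.7, 4.01 and 4.68 CPM against 17.7, 28.4 and 29.7 CPM, a fall of 5.65-fold (adjusted p = 1.9e-05). Il2rb, the receptor chain for IL-2 and IL-15, fell by 5.66-fold (1.7 ± 0.103 against 9.63 ± 0.963 CPM, adjusted p = 9.7e-08), and Klrd1, the CD94 chain of natural killer receptors, by 8.28-fold (adjusted p = 2.2e-06). Il15, the cytokine that sustains these cells, went the other way. It stood at 27.8, 31.6 and 30.9 CPM against 16.5, 16.4 and 17.6 CPM, a rise of 1.79-fold (adjusted p = 9.4e-06).

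Of 9 genes kept as gamma delta T cell markers, 2 rose, 2 fell and 5 were not called (median log2 -0.03). Cd7 fell by 5.8-fold (adjusted p = 9.4e-05) and Blk, a kinase that B cells also express, by 2.22-fold (adjusted p = 0.0004). Sox13 (chr1:135278877-135320789), a transcription factor of gamma delta T cells that other tissues express too, stood at 103, 97 and 114 CPM against 39.8, 40.5 and 34.1 CPM, a rise of 2.75-fold (adjusted p = 3.3e-08). The Rag1-/- mice, which have no T cells, were at 98.3 CPM and the co-housed mice at 97.6 ± 9.02 CPM. Maf rose by 1.57-fold (416 ± 54.8 against 266 ± 17.2 CPM, adjusted p = 0.00496), and this call held only with all mice present or without TCRaSepxT2 (adjusted p up to 0.0293 without another mouse).

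**Figure D2:**
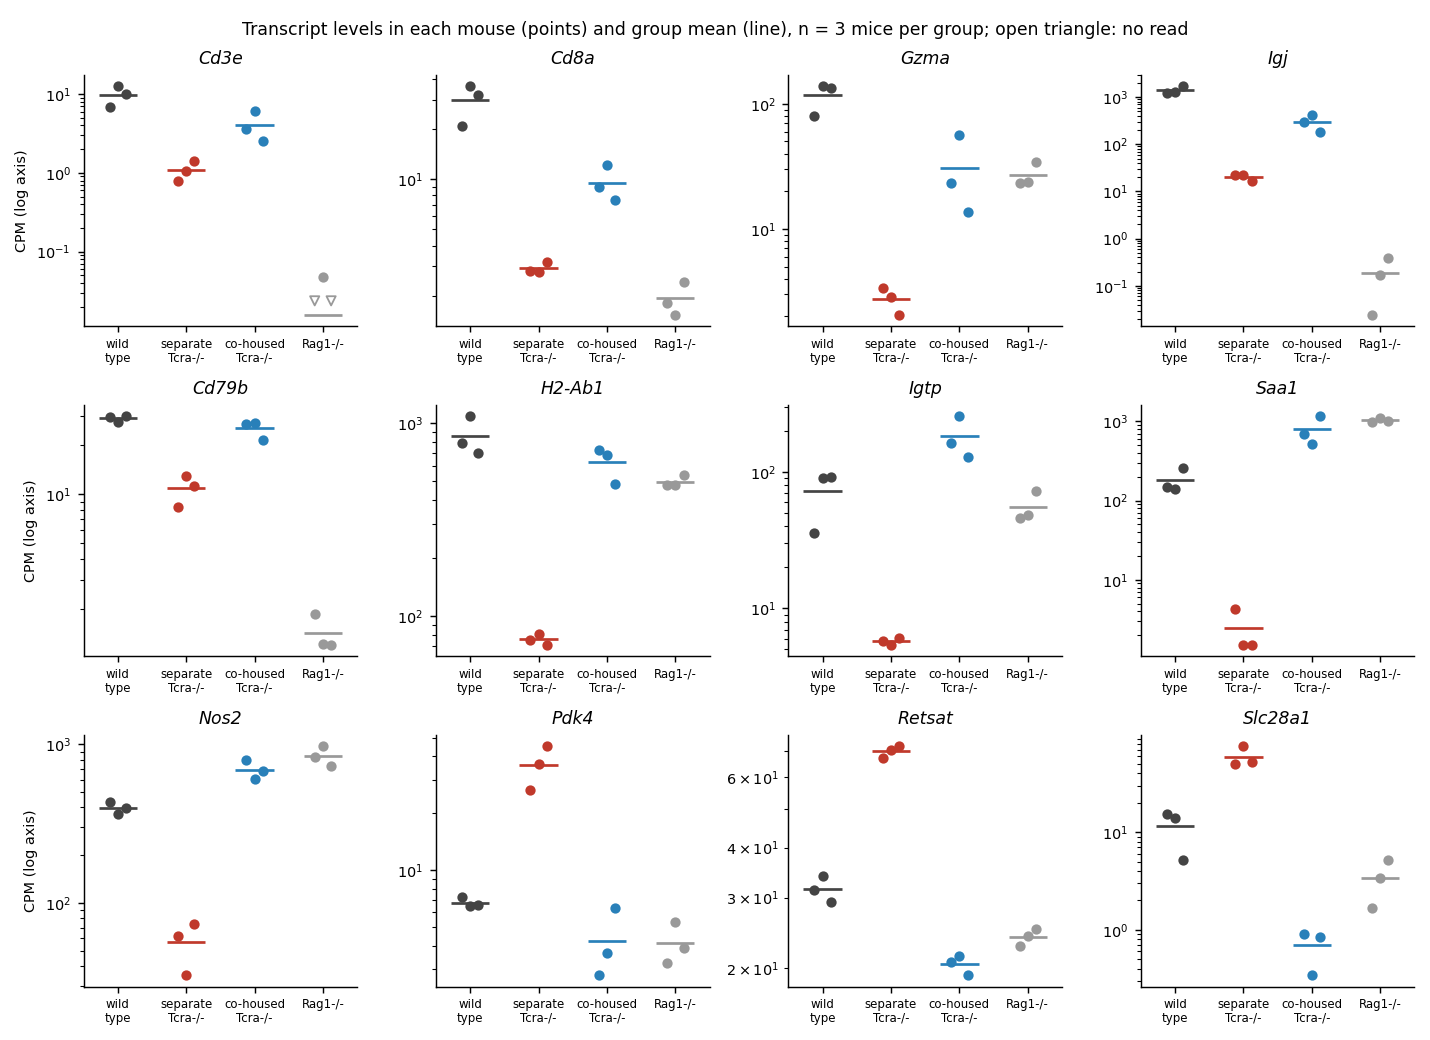
CPM of 12 genes on a log axis in each mouse (points, 3 per group) with the group mean (line); open triangles mark Rag1-/- mice without a Cd3e read, drawn below the lowest value. In all 12 panels the separately housed mice do not overlap wild type: they are lower for the first 9 genes and higher for Pdk4, Retsat and Slc28a1. All 12 genes were called, and the groups did not overlap in any called gene, nor in 40.7% of all genes tested.

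B cell genes were lower. Of 23 tested, 18 fell and none rose (median log2 -1.34), and their summed level was 104 to 179 CPM against 302 to 371 CPM in wild type, with 49.1 to 60.5 CPM in Rag1-/- mice. Cd79b, which pairs with Cd79a to pass on B cell receptor signals, stood at 8.36, 12.9 and 11.2 CPM against 29.5, 27.6 and 29.9 CPM, a fall of 2.67-fold (adjusted p = 1.2e-05). Ms4a1, which encodes CD20, fell by 3.4-fold (adjusted p = 0.000169), Vpreb3 by 4.02-fold (adjusted p = 8.7e-05) and the adaptor Blnk by 2.11-fold (adjusted p = 1.3e-05). Blnk was also at 30 CPM in the Rag1-/- mice, which have no B cells.

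Germinal centre genes were lower as well. Of 11 tested, 8 fell and none rose (median log2 -1.40). Mef2b, a transcription factor of germinal centre B cells, fell by 56.1-fold (0.0379 ± 0.0353 against 2.25 ± 1.15 CPM, adjusted p = 7.6e-06). Gcet2 fell by 22.2-fold (0.195 ± 0.0729 against 4.38 ± 0.279 CPM, adjusted p = 4.5e-07) and Mybl1 by 3.86-fold (adjusted p = 3.7e-05). Cxcl13, the chemokine that guides B cells into follicles, fell by 2.65-fold (adjusted p = 0.000297).

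Genes of the IgA system fell in 16 of 18 cases, with no rise (median log2 -1.50). Igj, the J chain that joins IgA into dimers (chr5:88948834-88956922), stood at 22.2, 22.3 and 16.7 CPM against 1229, 1265 and 1722 CPM. The fall was 68.9-fold (log2 -6.11 ± 0.39, adjusted p = 1.1e-05), and the 3 separately housed mice lay far below the lowest wild type mouse. Co-housed mice stood between, at 301 ± 119 CPM, and Rag1-/- mice at 0.192 CPM. The plasma cell gene 2010001M09Rik, also named Mzb1, fell by 18.2-fold (1.32 ± 0.392 against 24.1 ± 4.27 CPM, adjusted p = 3.4e-07), and Pou2af1, a coactivator of immunoglobulin transcription, by 6.14-fold (adjusted p = 5.1e-07). Ccr10, the receptor that brings IgA plasma cells to the gut, had 0.0439, 0 and 0.0875 CPM against 1.21, 1.77 and 1.5 CPM, a 31.5-fold fall (adjusted p = 1.7e-05).

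The epithelial side of IgA transport was lower too. Pigr, the receptor that carries dimeric IgA through the epithelium (chr1:132723261-132748826), stood at 1769, 1651 and 1521 CPM against 3282, 3888 and 4007 CPM, a fall of 2.26-fold (log2 -1.18 ± 0.10, adjusted p = 7.6e-07). Co-housed mice were at 1666 ± 91.8 CPM, and their difference from separately housed mice was -0.02 ± 0.10 on the log2 scale (adjusted p = 0.901). Prdm1, a regulator of plasma cells that the epithelium also expresses, fell by 2.16-fold (adjusted p = 4.7e-06). Madcam1, the vessel address for lymphocytes that home to the gut, was the only one of 13 endothelial genes called by edgeR and fell by 3.17-fold (1.35 ± 0.333 against 4.29 ± 0.997 CPM, adjusted p = 7.5e-05). That count is near the share over all genes tested, of which 7.7% were called lower.

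**Figure D3:**
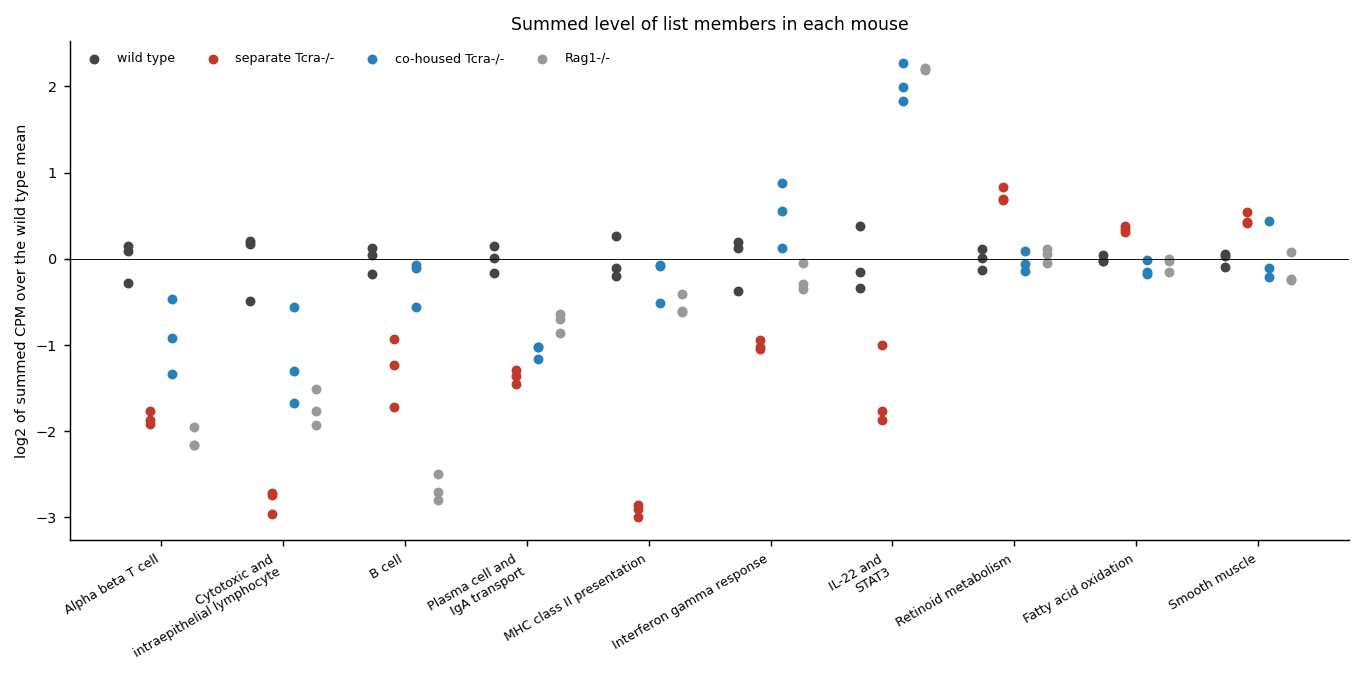
Summed CPM of the members of 10 gene lists in each mouse, as log2 of the ratio to the wild type mean (0 on the axis), 1 point per mouse and 4 colours for the 4 groups. Separately housed mice lie apart from wild type in every list shown, furthest below it for the cytotoxic and MHC class II lists and above it for retinoid metabolism, fatty acid oxidation and smooth muscle.

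Genes of MHC class II presentation fell together. Of 12 tested, 10 fell and none rose (median log2 -2.97). Their summed level was 731 to 804 CPM against 5099 to 6998 CPM in wild type. H2-Ab1, the beta chain of the I-A molecule (chr17:34400172-34406363), stood at 75.6, 80.9 and 71 CPM against 789, 1086 and 696 CPM. It was 11.3-fold lower (log2 -3.50 ± 0.18, adjusted p = 2.7e-07), without overlap. Ciita, the coactivator that switches the class II genes on (chr16:10480165-10527657), stood at 7.5, 9.99 and 8.22 CPM against 60.6, 80.6 and 75 CPM, a fall of 8.41-fold (adjusted p = 5.6e-07).

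The invariant chain Cd74, which guides class II molecules to the compartment where peptides are loaded, stood at 177, 205 and 183 CPM against 2007, 2733 and 1914 CPM. It fell by 11.8-fold (adjusted p = 1.7e-10). The microRNA gene Mir5107, which lies within Cd74 and shares exonic bases with it, fell by 12.7-fold, and reads of the pair cannot be separated. H2-DMa and H2-DMb1, which encode the peptide exchange factor H2-DM, fell by 8.96-fold (adjusted p = 5.8e-09) and 12.1-fold (adjusted p = 1.7e-10). H2-Eb1, the beta chain of the I-E molecule, fell by 7.33-fold (78 ± 4.85 against 572 ± 95.7 CPM, adjusted p = 2.0e-07). The uncalled members, named for that reason, were H2-DMb2 (1.98 ± 0.206 against 3.58 ± 0.586 CPM) and Ctss (240 ± 13.1 against 293 ± 4.63 CPM). Both passed with the 6 libraries alone (adjusted p = 0.00516 and 0.00771), and H2-DMb2 by DESeq2 (0.00929).

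Class II genes of the Rag1-/- mice summed to 3815 to 4403 CPM, and those of co-housed mice to 4077 to 5577 CPM. All 12 members tested were lower in separately housed than in co-housed Tcra-/- mice at an adjusted p under 0.01. Of all genes tested, 21.1% were lower in that comparison. H2-Ab1 was at 497 CPM in Rag1-/- mice and 631 ± 129 CPM in co-housed mice, and its separately housed minus co-housed difference was -3.06 ± 0.18 (adjusted p = 7.1e-08).

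Class II promoters carry a box that holds the inverted CCAAT letters, TGATTGG. Among the 9 class II genes with a 250-base window upstream of the start in RefSeq (GRCm38.p6), 7 held TGATTGG on either strand, against 7.23% of all 32851 windows. The windows of H2-DMa and Ctss held none, and H2-Ab1, H2-Ea, Cd74 and Ciita had no window. Shown are 4 of the 7, from genes that were called, each 5′ to 3′ on the gene's strand up to the base before the start, with TGATTGG in capitals. Their positions are chr17:34287824-34288073 (minus strand) for H2-Aa, chr17:34305617-34305866 (plus) for H2-Eb1, chr17:34152941-34153190 (plus) for H2-DMb1 and chr17:34238655-34238904 (plus) for H2-Ob.
H2-Aa: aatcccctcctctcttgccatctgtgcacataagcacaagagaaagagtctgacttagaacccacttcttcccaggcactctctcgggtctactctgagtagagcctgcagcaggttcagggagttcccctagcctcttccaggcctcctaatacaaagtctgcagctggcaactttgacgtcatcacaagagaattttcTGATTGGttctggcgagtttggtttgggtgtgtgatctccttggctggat
H2-Eb1: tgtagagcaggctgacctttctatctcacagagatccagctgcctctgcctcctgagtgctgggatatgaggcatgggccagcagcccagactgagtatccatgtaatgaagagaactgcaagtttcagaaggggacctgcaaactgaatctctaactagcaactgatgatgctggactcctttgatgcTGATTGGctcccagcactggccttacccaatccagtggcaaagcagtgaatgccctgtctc
H2-DMb1: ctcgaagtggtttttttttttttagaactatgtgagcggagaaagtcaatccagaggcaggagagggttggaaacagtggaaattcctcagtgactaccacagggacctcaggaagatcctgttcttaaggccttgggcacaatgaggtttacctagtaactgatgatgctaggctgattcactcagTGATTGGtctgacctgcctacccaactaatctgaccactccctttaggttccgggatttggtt
H2-Ob: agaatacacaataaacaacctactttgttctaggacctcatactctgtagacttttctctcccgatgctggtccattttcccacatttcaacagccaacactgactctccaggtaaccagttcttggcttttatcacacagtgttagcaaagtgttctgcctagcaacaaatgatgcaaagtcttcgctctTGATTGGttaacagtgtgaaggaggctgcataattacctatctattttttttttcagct
The box starts at position -50 in H2-Aa, -61 in H2-Eb1, -63 in H2-DMb1 and -59 in H2-Ob, counted back from the start. H2-Aa and H2-Ob were chosen for their sequences after their values were seen. H2-Aa fell by 11-fold (149 ± 16.4 against 1640 ± 246 CPM, adjusted p = 4.5e-07), and H2-Ob, a subunit of the H2-DM inhibitor H2-O that B cells express, by 2.57-fold (10.6 ± 2.18 against 27.2 ± 4.21 CPM, adjusted p = 0.00199). The letters were thus present both in genes that fell steeply and in one that fell less. A match is a description of the sequence and not a binding site.

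Interferon gamma and the genes it induces were lower. Ifng itself had 4 reads against 69 (0.0439, 0 and 0.0437 CPM against 0.315, 0.816 and 0.425), a 16-fold difference with an adjusted p of 0.00236 that rose to 0.0124, 0.0123 and 0.0121 without TCRaSepxT3, TCRaSepxT4 and WTB6x3160. Of 29 interferon gamma response genes tested, 17 fell and none rose (median log2 -1.72), with 1 higher at an unadjusted p under 0.05 and 0 with DESeq2. The count was 9 without TCRaSepxT3 or TCRaSepxT4 and 10 without WTB6x3160. Irf8, a transcription factor of the response, fell by 2.41-fold (55.5 ± 4.45 against 134 ± 25 CPM, adjusted p = 3.1e-06).

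Effectors of the response were also lower. Igtp, an immunity-related GTPase, stood at 5.73, 5.4 and 6.06 CPM against 35.9, 90.8 and 91.9 CPM, a fall of 12.7-fold (adjusted p = 0.000568). The wild type mice spread widely, with WTB6x3159 lowest, and still did not reach the separately housed mice. Ubd, a ubiquitin-like modifier, spread more: 56.9, 220 and 112 CPM in wild type and 2.96, 3.08 and 2.54 CPM in separately housed mice, a fall of 45.4-fold (adjusted p = 0.000814). Ifi47 fell by 5.29-fold (adjusted p = 7.9e-05), Gbp9, a guanylate-binding protein, by 2.73-fold (adjusted p = 0.000516) and the GTPase gene Gm12250 by 11.8-fold (adjusted p = 0.000462). Irgm2 fell by 6.76-fold (adjusted p = 0.000523), and with the 6 libraries alone it missed the threshold (0.0103).

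Genes of class I presentation were lower. Of 27 tested, 16 fell and none rose (median log2 -0.83). Nlrc5, the coactivator of class I genes and counterpart of Ciita, stood at 2.66, 3.77 and 2.93 CPM against 24.5, 46 and 50.4 CPM, a fall of 12.9-fold (adjusted p = 0.000131). Psmb8, an immunoproteasome subunit, fell by 5.79-fold (28.1 ± 2.51 against 163 ± 31.4 CPM, adjusted p = 1.4e-06), and the subunit Psmb10 by 1.92-fold (adjusted p = 1.6e-06). Psme2, of the proteasome activator PA28, fell by 1.76-fold (adjusted p = 6.1e-06). H2-D1, a classical class I heavy chain, fell by 2.21-fold (355 ± 15.8 against 787 ± 116 CPM, adjusted p = 1.6e-06), though class I genes are near-identical copies of each other and their reads may be split.

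Psmb9, another immunoproteasome subunit, and Tap1, which pumps peptides into the endoplasmic reticulum, start back to back and share the region between them, so they were chosen after their values were seen. Psmb9 stood at 17.8, 15 and 14.6 CPM against 59, 83.6 and 66.9 CPM, and Tap1 at 23.8, 22.6 and 21.1 CPM against 91, 162 and 123 CPM. They fell by 4.42-fold (adjusted p = 7.6e-06) and 5.58-fold (adjusted p = 2.1e-05). The 225 bases between their starts, at chr17:34187331-34187555 in GRCm38.p6 (RefSeq, plus strand, running from Psmb9 to Tap1), are given with CCAATCA, the reverse complement of TGATTGG, in capitals.
Psmb9-Tap1: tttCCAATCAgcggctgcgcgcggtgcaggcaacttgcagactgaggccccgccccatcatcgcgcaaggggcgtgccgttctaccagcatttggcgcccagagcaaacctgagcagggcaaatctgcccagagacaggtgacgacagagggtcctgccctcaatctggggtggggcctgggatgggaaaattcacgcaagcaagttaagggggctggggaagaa

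Type I interferon genes were partly lower. Of 31 tested, 8 fell and none rose (median log2 -0.85). The number that fell was 20 with the 6 libraries alone, 13 with DESeq2, and 2 or 3 without any 1 mouse other than WTB6x3159. Zbp1, a sensor of Z-form nucleic acids that can start necroptosis, stood at 5.35, 5.85 and 5.29 CPM against 43.6, 88.7 and 88.1 CPM, a fall of 13.4-fold (adjusted p = 1.9e-05). Parp14 fell by 1.93-fold (167 ± 16 against 322 ± 37.7 CPM, adjusted p = 3.3e-05). Among 21 genes of pyroptosis and necroptosis, 7 fell and 1 rose (median log2 -0.19). Casp4, the inflammatory caspase also known as caspase-11, stood at 34.9, 24.8 and 32.2 CPM against 91.7, 82.5 and 77.9 CPM, a fall of 2.74-fold (adjusted p = 5.0e-06). Mlkl, the pore-forming effector of necroptosis, fell by 2.84-fold (adjusted p = 2.6e-05) and the kinase Ripk3, which activates it, by 1.65-fold (adjusted p = 3.0e-05).

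**Figure D4:**
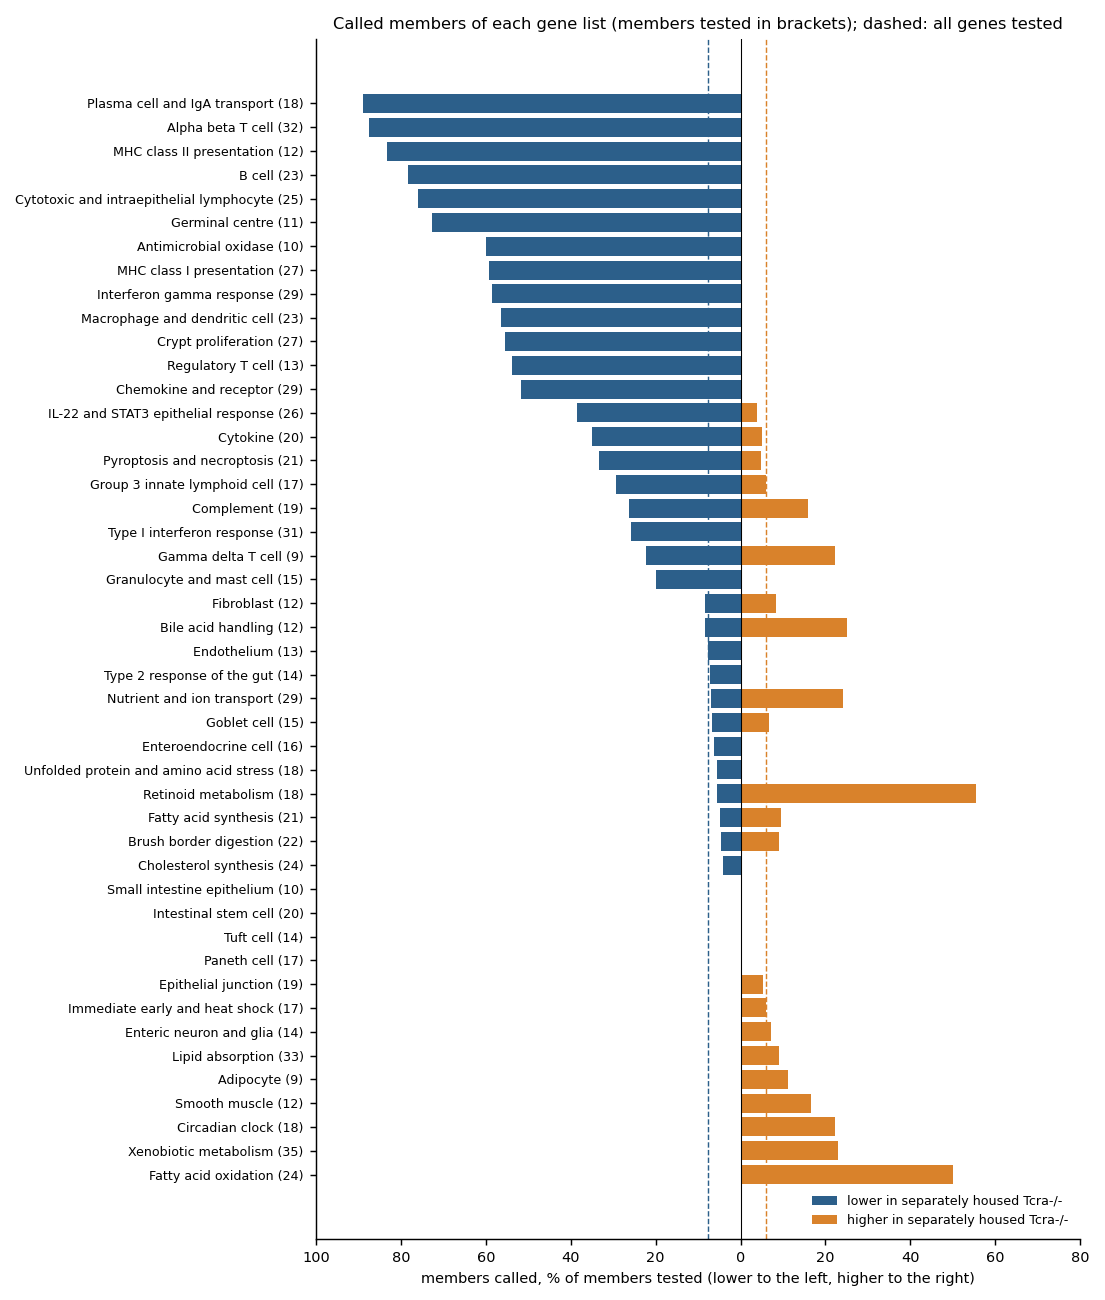
Share of the tested members of each gene list called lower (to the left) or higher (to the right) in separately housed Tcra-/- than in wild type mice, in % of members tested, for lists with 8 or more tested members (number in brackets). Dashed lines give the shares over all genes tested (7.7% lower, 6.06% higher): lymphocyte, IgA and MHC lists reach far left, and fatty acid oxidation and retinoid metabolism far right.

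Epithelial antimicrobial and acute phase genes were lower as well. Of 26 genes of the IL-22 and STAT3 response tested, 10 fell and 1 rose (median log2 -1.26). The one that rose was Reg3a (198 ± 2.99 against 87 ± 8.16 CPM, adjusted p = 0.00919), named for that reason, and its call was lost without any 1 mouse. Il22 had 13 reads in wild type and 0 in separately housed mice (at least 4.36-fold lower against a floor of 3 reads over the group, adjusted p = 0.00945), and that call was lost in 7 of 12 settings, all 6 that leave out a mouse included (adjusted p up to 0.0327). Il17a, below the filter and not tested, had 39 reads against 0. Of 17 genes of group 3 innate lymphoid cells, a source of IL-22, 5 fell and 1 rose (median log2 -0.38), with 3 lower without TCRaSepxT4, WTB6x3159 or WTB6x3167 and 0 higher without any 1 mouse except TCRaSepxT2. Ltb, a lymphotoxin chain, fell by 2.64-fold (adjusted p = 0.000126) and the migration receptor Gpr183 by 2.76-fold (adjusted p = 0.000983). Both are also expressed by B and T cells.

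Saa1, an acute phase apolipoprotein that the ileal epithelium makes in response to adherent bacteria (chr7:53995869-53998350), stood at 4.34, 1.51 and 1.51 CPM against 149, 142 and 261 CPM. It was 74.5-fold lower (log2 -6.22 ± 0.54, adjusted p = 7.9e-05). TCRaSepxT2 was the highest of its group and still far below the lowest wild type mouse. Its neighbour Saa2 fell by 77.8-fold (0.207 ± 0.0733 against 16.4 ± 5.74 CPM, adjusted p = 3.0e-05) and Saa3 by 13.9-fold (0.262 ± 0.137 against 3.66 ± 1.16 CPM, adjusted p = 8.2e-07). Saa1 and Saa2 are close copies that lie head to head. Their 250-base upstream windows (RefSeq, GRCm38.p6, chr7:46742981-46743230 on the minus strand and chr7:46751583-46751832 on the plus strand) matched in 238 of 251 aligned columns (94.8%). They are printed 5′ to 3′ with the differing bases in capitals, to show how alike the region is in genes that fell to a like extent.
Saa1: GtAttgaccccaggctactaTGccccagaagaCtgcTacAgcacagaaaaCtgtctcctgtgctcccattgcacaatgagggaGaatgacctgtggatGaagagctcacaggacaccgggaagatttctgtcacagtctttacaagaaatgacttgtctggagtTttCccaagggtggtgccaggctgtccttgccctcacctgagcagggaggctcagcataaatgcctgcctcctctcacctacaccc
Saa2: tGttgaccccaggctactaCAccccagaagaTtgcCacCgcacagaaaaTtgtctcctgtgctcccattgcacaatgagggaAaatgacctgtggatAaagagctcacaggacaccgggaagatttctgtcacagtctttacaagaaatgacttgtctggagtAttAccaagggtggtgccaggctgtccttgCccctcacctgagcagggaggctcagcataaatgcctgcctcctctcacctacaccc
Reads of such copies may be assigned to either gene, so the Saa1 and Saa2 values are not independent.

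Reg3g and Reg3b are lectins that act against bacteria at the mucus layer. Reg3g stood at 2580, 1118 and 1291 CPM against 5350, 4611 and 8507 CPM, a fall of 3.7-fold (adjusted p = 0.00398) that was not called with the 6 libraries alone (0.0487) or without TCRaSepxT3 (0.0122), TCRaSepxT4 (0.0244) or WTB6x3167 (0.0114). Reg3b, with 6336, 2437 and 3024 CPM against 10904, 8634 and 16750 CPM, missed the threshold (adjusted p = 0.011). It passed without TCRaSepxT2 (0.00014), with a filter of 1 CPM in 3 libraries (0.00853) and by DESeq2 (0.000207). Fut2, the fucosyltransferase of the epithelial surface, was not called by edgeR in the 12 libraries (2.62 ± 0.837 against 6.62 ± 2.31 CPM, adjusted p = 0.0486), but passed with the 6 libraries alone (0.00682) and by DESeq2 (0.0025). Retnlb, which encodes the secreted goblet cell protein RELM beta, had 4 reads against 150 (0.0311 ± 0.0538 against 1.12 ± 0.415 CPM, adjusted p = 0.00126). Pla2g5, a secreted phospholipase, fell by 5.55-fold (adjusted p = 1.5e-05).

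Enzymes that make reactive nitrogen and oxygen fell in 6 of 10 cases, with no rise (median log2 -0.85). Nos2, the inducible nitric oxide synthase (chr11:78734361-78773626), stood at 62, 35.1 and 73.4 CPM against 434, 363 and 397 CPM, a fall of 7-fold (log2 -2.81 ± 0.25, adjusted p = 3.3e-05). Nox1, an epithelial NADPH oxidase, fell by 4.78-fold (0.776 ± 0.286 against 3.72 ± 0.827 CPM, adjusted p = 5.2e-05). Its organiser Noxo1 and its partner Cyba fell by 1.48-fold (adjusted p = 5.3e-05) and 1.67-fold (adjusted p = 1.0e-05).

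Myeloid genes fell in 13 of 23 cases, with no rise (median log2 -0.73, 1 higher at an unadjusted p under 0.05 and 0 with DESeq2), and the count was 5 without TCRaSepxT3, 3 without TCRaSepxT4 and 5 without WTB6x3167. Itgam, the integrin CD11b, stood at 13.6, 10.2 and 11.2 CPM against 21, 18.6 and 22.8 CPM, a fall of 1.79-fold (adjusted p = 6.3e-05). Itgax, the dendritic cell integrin CD11c, fell by 1.77-fold (adjusted p = 0.000413) and Aif1, which encodes the macrophage protein IBA1, by 1.91-fold (adjusted p = 0.000145). Of 15 granulocyte and mast cell genes, 3 fell and none rose (median log2 -0.56), and 1 fell without TCRaSepxT2, TCRaSepxT4, WTB6x3160 or WTB6x3167. Prg2, the eosinophil major basic protein, had 9 reads against 127 (13.6-fold lower, adjusted p = 0.000491).

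Among 29 chemokines and their receptors, 15 fell and none rose (median log2 -1.51). Ccl5, a chemokine that activated cytotoxic lymphocytes store and release, stood at 2, 1.72 and 2.12 CPM against 28.3, 62.8 and 50.6 CPM, a fall of 24.2-fold (adjusted p = 0.000363). Cxcr4, a homing receptor of lymphocytes, fell by 4.38-fold (4.18 ± 0.972 against 18.3 ± 3.91 CPM, adjusted p = 6.5e-07). Ccl22, a ligand for Ccr4 made by dendritic cells, fell by 2.63-fold (adjusted p = 0.000113). Of 20 cytokine genes tested, 7 fell and 1, Il15, rose (median log2 -1.15), and 4 fell with the stricter filter of 1 CPM in 3 libraries. Il18bp, a secreted inhibitor of IL-18, stood at 5.11, 5.24 and 3.76 CPM against 20.3, 36.8 and 35.7 CPM, a fall of 6.58-fold (adjusted p = 5.3e-05). Tgfb1, which favours IgA switching and regulatory T cells, fell by 2.34-fold (adjusted p = 7.0e-06) and Il7, which sustains lymphocytes, by 1.87-fold (adjusted p = 0.000117).

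Complement genes went both ways, with 5 of 19 lower and 3 higher (median log2 -0.27), and 2, 1 and 2 lower without TCRaSepxT3, TCRaSepxT4 and WTB6x3167. C4b fell by 2.17-fold (5.14 ± 0.0963 against 11.1 ± 1.94 CPM, adjusted p = 5.8e-05). Cfb, of the alternative pathway, stood at 297, 290 and 315 CPM against 232, 221 and 218 CPM, a rise of 1.34-fold (adjusted p = 0.000222). Cd55, which protects cells from complement, stood at 89.8, 127 and 72.1 CPM against 49.3, 44.3 and 40.4 CPM, a rise of 2.16-fold (adjusted p = 0.000728).

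Several metabolic lists of the absorptive epithelium held more rises than falls. Of 18 retinoid metabolism genes tested, 10 rose and 1 fell (median log2 0.34), and the list summed to 1535 to 1708 CPM against 876 to 1032 CPM. Retsat, the retinol saturase (chr6:72548622-72557482), stood at 67.1, 70.4 and 71.7 CPM against 31.4, 33.9 and 29.2 CPM, a rise of 2.21-fold (log2 1.15 ± 0.08, adjusted p = 9.9e-08). Lrat, which esterifies retinol for transport, rose by 1.85-fold (50.5 ± 3.03 against 27.4 ± 3.31 CPM, adjusted p = 7.9e-05), and Adh1, an alcohol dehydrogenase that oxidises retinol, by 2.08-fold (adjusted p = 3.8e-05). Stra6, a receptor for retinol-binding protein, went the other way, at 0.197, 0.536 and 0.547 CPM against 2.25, 1.88 and 2.95 CPM (5.52-fold lower, adjusted p = 6.8e-05). Stra6 was at 0.184 CPM in Rag1-/- mice and 2 ± 0.116 CPM in co-housed mice.

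Of 24 fatty acid oxidation genes tested, 12 rose and none fell (median log2 0.35). Pdk4, the kinase that shuts pyruvate out of oxidation (chr6:5433351-5446278), stood at 26.4, 36.3 and 44.9 CPM against 7.24, 6.48 and 6.53 CPM, a rise of 5.32-fold (log2 2.41 ± 0.28, adjusted p = 9.6e-05). Ppara, the nuclear receptor that induces these genes, rose by 1.77-fold (77.2 ± 10.3 against 43.6 ± 6.69 CPM, adjusted p = 5.8e-05) and its coactivator Ppargc1a by 1.69-fold (adjusted p = 0.000989). Acaa2, the thiolase of mitochondrial beta oxidation, rose by 1.55-fold (adjusted p = 0.000155). Lipid uptake and chylomicron genes rose in 3 of 33 cases, with no fall (median log2 0.24), and in 8 with DESeq2. Of all genes tested, edgeR called 6.06% higher. Slc27a2, a fatty acid transporter and acyl-CoA synthetase, rose by 1.69-fold (53.8 ± 1.82 against 31.8 ± 1.2 CPM, adjusted p = 9.8e-06). Cd36, a fatty acid receptor, missed the threshold (39.4 ± 3.56 against 29.7 ± 3.27 CPM, adjusted p = 0.0108) and passed it in 6 of the 12 alternative settings, among them DESeq2 (0.0039) and without TCRaSepxT2 (0.00907) or WTB6x3160 (0.00595). Not called were Fabp1 (92.3 ± 20.2 against 46.9 ± 12.9 CPM, adjusted p = 0.0864) and Apoa4 (1749 ± 321 against 1050 ± 229, adjusted p = 0.0369).

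Of 21 fatty acid synthesis genes, 2 rose and 1 fell (median log2 -0.04), beside 6.06% and 7.7% of all genes called higher and lower, with 0 or 1 higher without any 1 mouse except WTB6x3160, and Fasn was at 62.1 ± 6.66 against 67.6 ± 5.5 CPM (adjusted p = 0.352). The one that fell was Elovl6, a fatty acid elongase, by 1.55-fold (adjusted p = 3.6e-05). Of 24 cholesterol synthesis genes tested, 1 fell and none rose (median log2 -0.13), with 2 higher and 2 lower by DESeq2. The number that fell was 0 without any 1 mouse except WTB6x3167, without which it was 2, and 0 with the filter of 1 CPM in 3 libraries.

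Of 12 bile acid genes, 3 rose and 1 fell (median log2 0.20), the fall being lost without TCRaSepxT3. Beside this, 6.06% of all genes tested were called higher and 7.7% lower. Abcc2, the apical pump for conjugates (chr19:43856798-43912708), stood at 315, 387 and 373 CPM against 124, 129 and 127 CPM, a rise of 2.84-fold (adjusted p = 0.000717). Nr0b2, the repressor SHP that bile acids induce, had 1.03, 1.65 and 1.86 CPM against 0.18, 0.0453 and 0.291 CPM, 203 reads against 23 (8.66-fold higher, adjusted p = 0.000616). The ileal transporter Slc10a2 did not pass the test (203 ± 9.53 against 213 ± 36.5 CPM, adjusted p = 0.782).

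Of 35 xenobiotic genes, 8 rose and none fell (median log2 0.19), with 4 or 5 rising when any 1 mouse except WTB6x3159 was left out. Cyp2j6 rose by 2.24-fold (280 ± 22.8 against 125 ± 12.6 CPM, adjusted p = 1.4e-07), and Gsta4, a glutathione transferase, by 2.29-fold (adjusted p = 6.9e-05). Cyp1a1, the main target of the aryl hydrocarbon receptor, stood at 8.58, 6.85 and 10.2 CPM against 2.23, 2.88 and 1.25 CPM, a rise of 4.03-fold (adjusted p = 0.00147). Cyp2c29 had 143 reads against 2 (adjusted p = 9.4e-05), too few in wild type for a fold. Cyp2c55 was not called (93.9 ± 7.32 against 34.7 ± 15.2 CPM, adjusted p = 0.0934), with WTB6x3167 at 17.2 CPM the lowest.

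Of 29 nutrient and ion transporters, 7 rose and 2 fell (median log2 0.17), with 3 higher without TCRaSepxT4, 4 without WTB6x3159 or WTB6x3167, and 11 with DESeq2. Slc15a1, the peptide transporter PEPT1, stood at 764, 831 and 977 CPM against 514, 558 and 495 CPM, a rise of 1.64-fold (adjusted p = 0.000637). Slc6a20a, a proline transporter, rose by 1.88-fold (160.0 ± 6.97 against 84.8 ± 8.69 CPM, adjusted p = 0.000469). Slc40a1, the iron exporter ferroportin (chr1:45964915-45982439), stood at 44.5, 35.2 and 36.9 CPM against 99.6, 101 and 123 CPM, a fall of 2.77-fold (adjusted p = 1.3e-06). Of 22 brush border genes, 2 rose and 1 fell (median log2 0.21), and the fall was lost without TCRaSepxT3 or WTB6x3167. Over all genes tested, 6.06% were called higher and 7.7% lower. The trehalase Treh rose by 1.74-fold (adjusted p = 0.000539) and the peptidase Naaladl1 by 1.48-fold (4837 ± 501 against 3275 ± 339 CPM, adjusted p = 0.000686).

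Crypt proliferation genes fell in 15 of 27 cases, with no rise (median log2 -0.53), and in 8 without TCRaSepxT4. Cdc20, an activator of the anaphase-promoting complex, stood at 14.4, 16.3 and 13.7 CPM against 23.2, 23.4 and 25.8 CPM, a fall of 1.63-fold (adjusted p = 2.9e-05). Rrm2, which makes deoxynucleotides, fell by 1.63-fold (adjusted p = 6.2e-05) and Plk1, a mitotic kinase, by 1.67-fold (adjusted p = 0.000108). Lymphocytes that divide also express these genes, and the part of their loss was not tested. Of 20 stem cell genes tested none was called by edgeR (median log2 0.03, with 3 higher and 4 lower at an unadjusted p under 0.05 and 2 lower with DESeq2), and Lgr5 was at 10.6 ± 2.06 against 11.9 ± 1.85 CPM (adjusted p = 0.478).

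None of 17 Paneth cell genes was called by edgeR or DESeq2, and 0 had an unadjusted p under 0.05 (median log2 -0.22), with Lyz1 at 8335, 6279 and 3471 CPM against 8412, 5654 and 7077 CPM (adjusted p = 0.781). TCRaSepxT4 was the lowest of the separately housed mice. None of 14 tuft cell genes was called by edgeR (median log2 0.37), with 7 higher and 1 lower at an unadjusted p under 0.05 and 1 higher with DESeq2. Of 15 goblet cell genes, Guca2a, which encodes guanylin, rose by 1.32-fold (adjusted p = 0.000863) and Retnlb fell. Among all genes tested, 6.06% were called higher and 7.7% lower. Ghrl, which encodes ghrelin, was the only one of 16 enteroendocrine genes called by edgeR in the 12 libraries and fell by 2.34-fold (1.74 ± 0.466 against 4.08 ± 0.646 CPM, adjusted p = 0.00043). Of the rest, 4 were higher at an unadjusted p under 0.05, and 1 was called higher by DESeq2 and 1 with the 6 libraries alone.

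Of 19 junction genes, Tjp1, the scaffold ZO-1, rose by 1.37-fold (adjusted p = 0.000189) and none fell, against 6.06% of all genes called higher. The number higher was 3 by DESeq2 and 2 without WTB6x3159, with library size alone as the scale or with the 6 libraries alone, and 3 were lower at an unadjusted p under 0.05 with 0 called lower by DESeq2. Egr1, an immediate early transcription factor, rose by 2.78-fold (35.6 ± 3.65 against 12.8 ± 0.641 CPM, adjusted p = 0.000173), the only one of 17 immediate early and heat shock genes called by edgeR in the 12 libraries. Of the rest, 4 were lower at an unadjusted p under 0.05, and 3 were called lower by DESeq2, 2 without WTB6x3167 and 1 with the 6 libraries alone. Of 18 clock genes, 4 rose and none fell (median log2 0.52), with 0 higher without TCRaSepxT4 and 2 without WTB6x3167. Nr1d1 spread widely and was not called (89.2, 119 and 145 against 29.4, 42.4 and 76.7 CPM, adjusted p = 0.176), and Nfil3 was not called either (adjusted p = 0.373). The labels do not give the hour of dissection.

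Of 12 smooth muscle genes, 2 rose and none fell (median log2 0.41), with 10 higher when the 6 libraries were fitted alone and 0 when any 1 mouse was left out. Among 12 fibroblast genes 1 rose and 1 fell (median log2 0.25), and among 14 genes of enteric neurons and glia 1 rose (median log2 0.63), with 6 higher by DESeq2. Both rises were lost without TCRaSepxT3, TCRaSepxT4 or WTB6x3160, the fibroblast one also without WTB6x3167 and the neural one also without WTB6x3159. The shares over all genes were 6.06% higher and 7.7% lower.

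The 15 largest rises included genes whose values are not given above. Cpn1, which encodes the catalytic chain of carboxypeptidase N (chr19:44030798-44061010), stood at 7.24, 9.11 and 8.75 CPM against 0.607, 0.952 and 0.805 CPM, a rise of 10.6-fold (log2 3.40 ± 0.21, adjusted p = 3.9e-08). Npl, a lyase that degrades sialic acid (chr1:155350146-155396844), stood at 37.8, 36 and 49.9 CPM against 6.23, 4.83 and 6.73 CPM, a rise of 6.95-fold (adjusted p = 1.1e-08). Co-housed mice stood near wild type for both, at 0.77 ± 0.113 CPM for Cpn1 and 7.04 ± 0.28 CPM for Npl. Slc28a1, a nucleoside transporter, stood at 49.6, 75.6 and 52.7 CPM against 15.5, 14.1 and 5.16 CPM, a rise of 5.11-fold (adjusted p = 0.00652). That call was lost with the 6 libraries alone and without any 1 mouse except WTB6x3167, at adjusted p from 0.013 to 0.0315.

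For some genes the other knockout groups stood near the separately housed mice. Tfcp2l1, a transcription factor (chr1:120524522-120581745), stood at 106, 94.4 and 126 CPM against 27, 23.9 and 21.4 CPM, a rise of 4.52-fold (adjusted p = 5.1e-06). It was at 91.5 ± 19.1 CPM in co-housed and 118 CPM in Rag1-/- mice. Aldh1a7, an aldehyde dehydrogenase, rose by 6.82-fold (50.9 ± 4.53 against 7.45 ± 2.23 CPM, adjusted p = 4.2e-06), with 30.8 ± 7.04 CPM in co-housed and 31.7 CPM in Rag1-/- mice. Pyroxd2, an oxidoreductase gene (chr19:42800348-42827265) named after its values were seen, was lower: 8.8, 9.67 and 10.1 CPM against 55.8, 62.5 and 54.2 CPM (6.04-fold, adjusted p = 3.6e-11), with 9.27 ± 0.135 CPM in co-housed and 10.1 CPM in Rag1-/- mice. All 3 comparisons use the same wild type mice.

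Other large rises were BC089597 (8.56-fold), Plk5 (5.48-fold), Klhl33 (5.45-fold), Defb37 (5.03-fold), Fras1 (4.94-fold), Cyp2c68 (4.17-fold) and Zmat4 (4.07-fold), at adjusted p from 5.8e-06 for Klhl33 to 0.00135 for Defb37 apart from BC089597 (2.1e-06). Cfd, the adipocyte and complement protease adipsin, stood at 7.53, 6.87 and 6.43 CPM against 1.66, 2.4 and 1.07 CPM (4.05-fold higher, adjusted p = 0.00735), and its call was lost without any 1 mouse (adjusted p up to 0.0328). The 10 adipocyte genes, 9 of them tested, summed to 84 to 112 CPM against 60.5 to 65.7 CPM in wild type, without overlap. The part of fat in the Cfd value was not tested.

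Some called genes lie near the Tcra locus on chromosome 14. As background, a targeted allele can bring along neighbouring sequence of the strain in which it was made. Dad1, the neighbour of the Tcra constant region in RefSeq (GRCm38.p6), was used as the anchor in mm9, a choice made after values were seen. Within 5 Mb of it, 28 of 125 genes tested were called (22.4%, against 13.8% of all genes), and 16 of 71 (22.5%) from 5 to 10 Mb, 18 of 95 (18.9%) from 10 to 20 Mb and 35 of 238 (14.7%) beyond. The share was 21.1% on chromosome 19 and 18.7% on chromosome 1. Genes called lower within 5 Mb of Dad1 include Gzmb, Psme2 and Irf9. Above, these were described or counted with cytotoxic, class I and type I interferon genes. Dad1 itself was not called (77 ± 3.26 against 82.5 ± 4.96 CPM, adjusted p = 0.361).

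A few of these neighbours stood apart in both Tcra-/- groups, which share their wild type controls. How many of the called neighbours did so was not counted. Klhl33 (chr14:51511064-51512930), among the 15 largest rises, did not. It stood at 5.25 ± 0.703 CPM against 0.96 ± 0.228 CPM in wild type, with 1.1 ± 0.197 CPM in co-housed and 0.317 CPM in Rag1-/- mice. Its difference between co-housed and wild type mice was not called by edgeR (adjusted p = 0.665). Pnp2, a purine nucleoside phosphorylase (chr14:51575816-51584424), stood at 8.43, 6.45 and 7.46 CPM against 85.8, 103 and 90.3 CPM, a fall of 12.5-fold (adjusted p = 7.7e-12), with 11.3 ± 1.22 CPM in co-housed and 68.6 CPM in Rag1-/- mice. The uncharacterised gene 1700011H14Rik (chr14:49846034-49865103) stood at 0.527, 1.4 and 1.2 CPM against 30.4, 35.2 and 33.7 CPM, a fall of 31.8-fold (adjusted p = 9.5e-07), with 0.0666 ± 0.115 CPM in co-housed and 21.6 CPM in Rag1-/- mice. Ccnb1ip1 and Ppp1r3e were named after their values were seen. Ccnb1ip1 (chr14:51408924-51415403) had 178 reads against 4, a rise of 40.3-fold (adjusted p = 9.1e-06), with 3.92 ± 0.881 CPM in co-housed and 0.0142 CPM in Rag1-/- mice. Ppp1r3e, 0.64 Mb from Dad1, fell by 3.65-fold (adjusted p = 9.3e-05), with 0.335 ± 0.1 CPM in co-housed and 2.66 CPM in Rag1-/- mice. In both Tcra-/- groups, linked strain sequence, if any, comes together with loss of the receptor. The Rag1-/- mice, whose levels are given for each gene, also lack mature T cells and are not labelled Tcra-/-. The part of linked sequence was not tested.

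**Figure D5:**
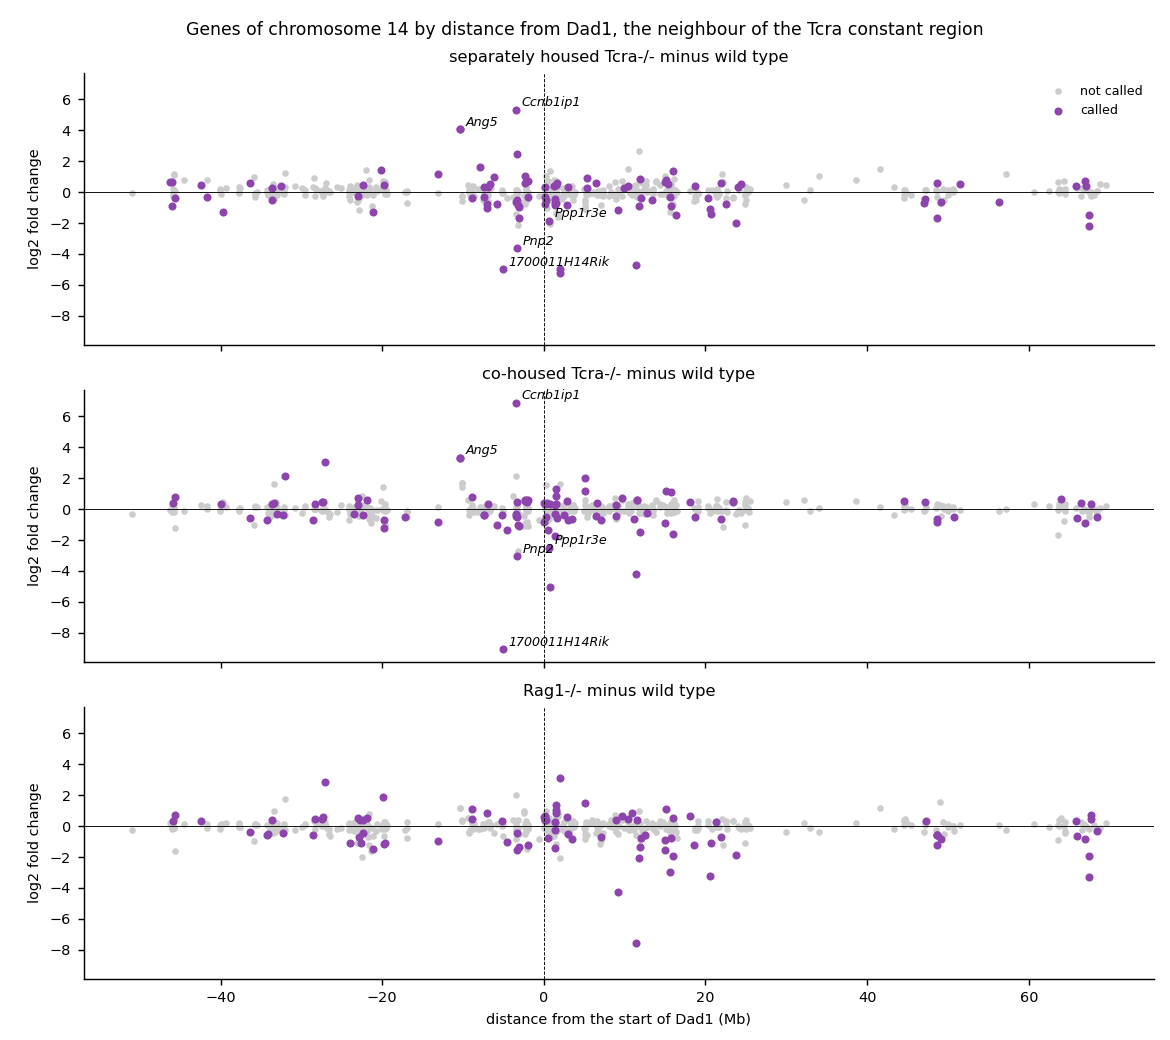
Log2 fold change against wild type of the genes tested on chromosome 14, by distance in Mb from the start of Dad1 (dashed line), in separately housed Tcra-/-, co-housed Tcra-/- and Rag1-/- mice, with called genes in purple (adjusted p under 0.01). Pnp2, 1700011H14Rik, Ppp1r3e, Ccnb1ip1 and Ang5 lie far from 0 in both Tcra-/- panels. Ang5 shares its position and reads with Ang3.

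Separately housed and co-housed mice carry the same genotype, and the difference between them was tested in the same fit. It was called for 6156 genes (38.8%), 2809 higher (17.7%) and 3347 lower (21.1%) in the separately housed mice, more than differed from wild type. With library size alone as the scale the median of all genes shifted by 0.12, and 59.8% of the calls were higher in place of 45.6%. Of the genes called higher than wild type, 854 of 961 had every separately housed mouse above all 9 other mice, and of those called lower, 704 of 1221 had every one below them. Over all 15866 genes tested, 2204 lay above and 1837 below in this way. Every called gene already lay clear of the 3 wild type mice, so part of these counts follows from the calls.

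The alpha beta T cell genes summed to 85.1 to 156 CPM in co-housed mice, between the other groups. Cd8a was at 9.55 ± 2.33 CPM in co-housed and 2.92 ± 0.216 CPM in separately housed mice (log2 difference -1.71 ± 0.23, adjusted p = 2.6e-05), and 24 of the 32 alpha beta T cell genes were lower in the separately housed mice. Saa1, Reg3g and Il22 were higher in co-housed mice than in wild type (log2 2.12, 2.51 and 4.34, adjusted p = 0.00589, 0.000668 and 5.5e-06). Against the separately housed mice, Saa1 was at 797 ± 331 CPM (log2 difference -8.34 ± 0.58, adjusted p = 4.8e-06), Reg3g at 35103 ± 7146 CPM (-4.40 ± 0.38, adjusted p = 1.1e-05) and Il22 at 2.03 ± 0.517 CPM (-9.45 ± 0.75, adjusted p = 1.8e-07). Of the 26 IL-22 and STAT3 response genes, 21 were lower in separately housed than in co-housed mice and 3 were higher. The shares over all genes in this comparison were 21.1% lower and 17.7% higher.

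Among the germinal centre genes, Gcet2 (-0.84 ± 0.42, adjusted p = 0.108) and Mybl1 (0.27 ± 0.27, adjusted p = 0.417) did not differ between the Tcra-/- groups at the threshold, and of the 11 genes 1 was higher and 1 lower. Of all genes tested, 17.7% were higher and 21.1% lower in this comparison. Retsat and Slc28a1, higher than wild type in separately housed mice, were lower than wild type in co-housed mice (log2 -0.62 and -4.08, adjusted p = 2.3e-05 and 0.00144), and for Pdk4 that difference missed the threshold (-0.66, adjusted p = 0.117). Between the Tcra-/- groups, with co-housed levels given, Retsat was at 20.4 ± 1.13 CPM (log2 difference 1.77 ± 0.08, adjusted p = 3.0e-10), Pdk4 at 4.26 ± 1.85 CPM (3.07 ± 0.29, adjusted p = 5.0e-06) and Slc28a1 at 0.7 ± 0.311 CPM (6.43 ± 0.63, adjusted p = 3.5e-05).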

How the data were processed

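RNA of the terminal ileum of 12 mice, 3 in each of 4 groups, was extracted with Trizol and sequenced from stranded mRNA libraries, per the labels' protocols. The authors deposited a table of unnormalized read counts for 23284 genes. The submitters' processing notes name bcl2fastq, TopHat2 2.0.11, Bowtie2 2.2.2.0, featureCounts of Subread 1.4.5-p1, DESeq2 1.12.3 and the build mm9. Whether the counting used strand was not stated in the labels. The whole table was tested with edgeR 4.0.16 in R 4.3.3 (TMM, filterByExpr, robust quasi-likelihood fit over all 12 libraries, 8 residual degrees of freedom), with Benjamini-Hochberg adjustment over 15866 genes and a threshold of 0.01. The filter left out 7418 genes, and 3810 of these were at 0 reads in all 12 libraries. Library totals were 37061276 to 50581616. For a gene with 0 reads in a group a floor of 3 reads over the group was used. PCR copies were not removed by molecular identifiers as far as the labels say, so limits from counts cover counting error only. Gene names that look like dates (25) were not used by name. Exons that overlap those of another gene occur in 1980 tested genes, among them Foxp3, Cd74, H2-D1, Ifi47 and Cdc20, whose counts are less certain. The fit was tested on simulated counts of this comparison over 15714 genes, with the changed genes drawn only from those above a mean of 1 CPM. It recovered 84% of genes changed by 1 and 94% of those changed by 2 on the log2 scale, with 3 false calls. Recovery of genes below that level was not tested.

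Genes were named by rule: the 15 largest rises and falls among called genes with a mean log2 CPM above 1 and no overlap, up to 4 called members with the smallest adjusted p in each of 53 lists (911 symbols, 856 tested), and a set always named. The members and lists were chosen with earlier results of these data known. Alternatives were other scalings and filters, the 6 libraries alone, leaving out each mouse, and DESeq2 1.42.0. A few members of the lists are counted in them but not reported here by name.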

Additional observations from a re-analysis of the deposited data

Results flagged for a closer look

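For 38 of the genes named above, the separately housed and co-housed Tcra-/- mice were called on opposite sides of wild type, with the difference between the groups tested in the same fit (adjusted p at most 3.5e-05) and both comparisons using the same wild type mice. Lower than wild type in separately housed and higher in co-housed mice were 18. Of the antimicrobial and IL-22 genes these were, as separately housed minus co-housed log2 differences, Il22 -9.45, Pla2g5 -4.46, Reg3g -4.40, Retnlb -10.28, Saa1 -8.34 and Saa2 -8.21. Il22 had no read in separately housed mice, so its fitted difference depends on the prior count. Of genes of necroptosis, interferon and IL-18 control they were Il18bp -4.41, Mlkl -2.55, Parp14 -1.49, Ripk3 -2.01 and Zbp1 -5.36, and the rest were C4b -1.93, Ccl22 -2.40, Ccr4 -4.27, Elovl6 -1.16, Prdm1 -1.52, Rrm2 -1.13 and Slc40a1 -2.36. Higher than wild type in separately housed and lower in co-housed mice were 20. Of the retinoid and fatty acid genes these were Acaa2 1.11, Adh1 1.70, Lrat 2.31, Ppara 1.59, Ppargc1a 1.5, Retsat 1.77 and Slc27a2 1.64. Of transport, bile acid and digestion genes they were Abcc2 3.36, Nr0b2 9.03, Slc15a1 1.63, Slc28a1 6.43, Slc6a20a 2.44 and Treh 1.52. Nr0b2 had no read in co-housed mice, so its fitted difference depends on the prior count too. The rest were BC089597 5.88, Fras1 3.92, Guca2a 0.68, Il15 1.66, Maf 1.27, Plk5 4.74 and Zmat4 4.36. All 3 mice of each Tcra-/- group lay on the side of the wild type mean given for each of these genes. Groups of 3 mice were not tested for outliers.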

How the results depend on the processing

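Over 12 settings other than the one reported, the calls of 191 of the genes named were followed. Of the 178 called among them, 143 kept their call in all 12 and 35 lost it in at least 1. Of those not called, 3 (Cd36, Fut2 and Reg3b) passed the threshold in at least 1. List members named only after their values were seen, such as Reg3a, are not in this tally. Among them the uncalled Il7r, H2-DMb2, Ctss and Ddx3y also passed in at least 1 setting. Leaving out 1 mouse gave 490 to 760 genes called higher, 791 to 975 lower and 112 to 155 higher over 2-fold, with fewer mice in each fit. DESeq2 called 1329 higher and 1604 lower. The sign of 2 uncalled genes turned: Slc10a2 ranged from -0.21 to 0.01 when 1 mouse was left out, with 0.00 without WTB6x3159 and 0.01 without WTB6x3167, and Lyz1 ranged from -0.53 to 0.05, the latter without TCRaSepxT4. The cause was not tested. Against co-housed mice, library size alone gave 3695 higher and 2480 lower. Of 106 list counts, 43 moved by over 1.5 times in at least 1 setting. No paired analysis was possible because the replicate numbers follow accession order and name mice only. Depth limits genes with few reads, such as Il22, Ifng and Foxp3.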

Other observations

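Some called genes outside the lists described above, chosen after their values were seen, add to the picture of the separately housed mice. Cd69, an early activation and retention receptor of lymphocytes, was 5.4-fold lower (1.01 ± 0.135 against 5.45 ± 0.796 CPM, n = 3 mice per group, adjusted p = 1.2e-06 by edgeR), and Runx3, a transcription factor of cytotoxic and resident lymphocytes, was 5.18-fold lower (adjusted p = 4.5e-07). Slc6a14, an amino acid transporter of the epithelium, stood at 13.2, 9.43 and 8.29 CPM against 53.1, 61.7 and 67.7 CPM (5.91-fold lower, adjusted p = 3.3e-06), with 183 ± 32 CPM in co-housed mice. Icam1, an adhesion molecule for leukocytes, was 2.88-fold lower (adjusted p = 4.0e-06). Slfn2 was 3.71-fold lower (adjusted p = 6.0e-08).

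Genes that rose included Cat, Edn1 and Insr. Cat, the peroxisomal catalase, stood at 316, 320 and 390 CPM against 161, 179 and 149 CPM, a rise of 2.1-fold (adjusted p = 1.7e-06 by edgeR), with 59.3 ± 3.58 CPM in co-housed mice. Edn1, which encodes endothelin 1, rose by 3.27-fold (14.6 ± 0.19 against 4.46 ± 0.613 CPM, adjusted p = 1.5e-06). Insr, the insulin receptor, rose by 2.05-fold (144 ± 12.3 against 70.1 ± 6.97 CPM, adjusted p = 1.6e-06). No mouse of the separately housed group overlapped wild type for any of these 3 genes. The same held for all 2182 called genes, and for 40.7% of all genes tested.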
